A study of Mus musculus with 6 samples.

Results

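The cerebral cortex of Nodal iPCKO mice, in which the ligand gene Nodal is deleted from mural cells after birth, was compared with Nodal lox/lox control cortex at single-cell resolution across all captured lineages. Barcodes with at least 1500 unique molecular identifiers (UMIs, 1 per captured RNA molecule) and a mitochondrial share of at most 17% were kept, which gave 3015 control and 4750 mutant barcodes, 7765 of the 67751 that pass the same rule over the 6 libraries of the series. Both groups carried loxP-flanked Nodal alleles and received 50 µg tamoxifen on each of postnatal days 1 to 3, and their cortices were taken at postnatal day 12. Mutants also carried Pdgfrb(BAC)-CreERT2, a bacterial artificial chromosome transgene that drives tamoxifen-inducible Cre recombinase from Pdgfrb regulatory sequence in mural cells. Controls were littermates without this transgene, so the deletion and the transgene itself cannot be told apart from the cortex libraries alone.

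Each genotype was 1 library, made from the pooled cortices of 2 mice after the meninges were taken off and myelin debris was cleared, and the sex of the mice was not given. Without replicate libraries no test of the genotype could be made. Intervals below are 95% exact counting intervals, binomial (Clopper-Pearson) for shares, Poisson for levels and conditional for ratios, and they cover counting error only. Over all barcodes the control library summed to 33889500 UMIs and the mutant library to 54791900. The kept barcodes had median depths of 8031 and 8070.5 UMIs, with median mitochondrial shares of 7.26% and 7.21%. The UMI limit passed near few barcodes: 19 control and 52 mutant barcodes lay within 10% above it, and 33 and 56 lay within 10% below it. Only 20 barcode sequences occurred in both libraries.

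Nodal is a ligand of the TGF-beta superfamily that signals through activin receptors and SMAD2 and SMAD3, and it is best known for patterning the early embryo. In brain, pericytes and smooth muscle cells form the mural coat of vessels beside endothelial cells, astrocytes contact that coat with their endfeet, and microglia are the resident macrophages. Interferon-stimulated genes are switched on when interferon reaches a cell, and immediate-early genes are transcription factors and regulators induced within minutes by many stimuli, tissue dissociation among them.

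Barcodes were placed in lineages by sets of marker genes, and a barcode with strong markers of more than 1 lineage was left out of every lineage. Astroglial barcodes numbered 657 in the control and 767 in the mutant, microglial 871 and 1442, endothelial 810 and 1457, mural 357 and 537, and fibroblast 90 and 102. Median scores of a gate's own markers lay between 0.959 and 1.502, and those of every other lineage were at most 0.110, the fibroblast markers of mutant mural cells. These are the markers that set the gates, so the scores describe the gates and are no separate check of cell identity. Neurons were a minority of 62 control and 211 mutant barcodes.

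The astroglial and fibroblast shares were lower in the mutant library and the endothelial share was higher, but of these 3 only the fibroblast difference kept an interval without 0 when the mitochondrial limit was set at 10% in place of 17%. Astroglial barcodes made up 21.8% of the control (20.3 to 23.3) and 16.1% of the mutant (15.1 to 17.2), a log2 ratio of shares of -0.43 (-0.58 to -0.28). At the 10% limit the log2 ratio was -0.10 (-0.30 to 0.11), and the median mitochondrial share of astroglial barcodes was 10.0% in the control and 8.80% in the mutant. Endothelial barcodes made up 26.9% of the control (25.3 to 28.5) and 30.7% of the mutant (29.4 to 32.0), a log2 ratio of 0.19 that became 0.075 (-0.057 to 0.209) with the limit at 10%, an interval that includes no difference. Microglial shares were 28.9% (27.3 to 30.5) and 30.4% (29.1 to 31.7), with overlapping intervals. Mural shares were 11.8% (10.71 to 13.05) and 11.3% (10.4 to 12.2), which overlap as well, and pericytes made up 242 of the control and 381 of the mutant mural barcodes. Fibroblast shares were 2.99% (2.41 to 3.66) and 2.15% (1.75 to 2.60), a log2 ratio of -0.48 (-0.90 to -0.05) that was -0.65 (-1.19 to -0.11) at the 10% limit.

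Of endothelial and mural barcodes combined, mural cells made up 30.6% of the control (28.0 to 33.3) and 26.9% of the mutant (24.99 to 28.94), or 2.27 and 2.71 endothelial barcodes per mural barcode. Neuronal barcodes made up 2.06% of the control (1.58 to 2.63) and 4.44% of the mutant (3.87 to 5.07). A share of barcodes also reflects how each cell type came through dissociation, and with 1 library per genotype that cannot be told apart from the number of cells in the tissue.

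**Figure D1:**
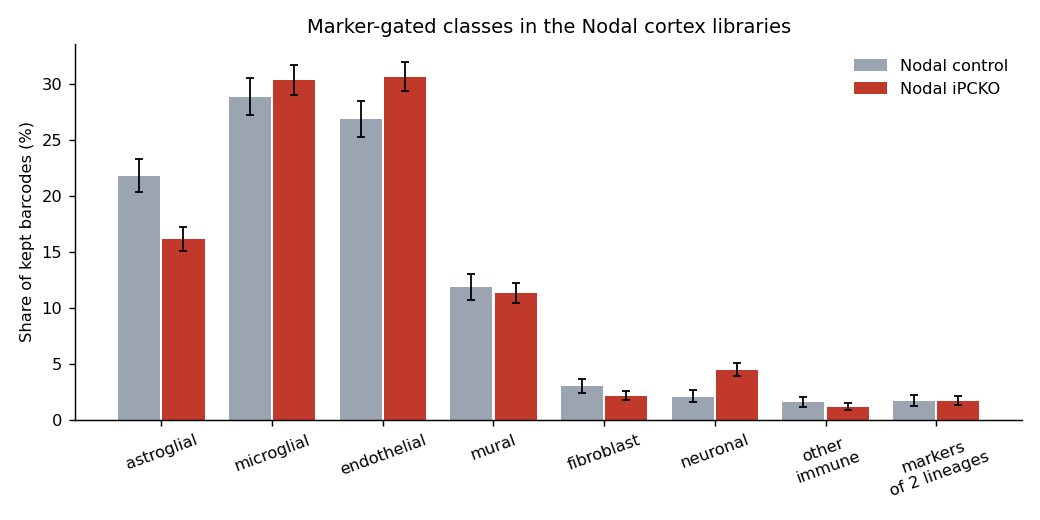
Share of kept barcodes (%) in each marker-gated class for the Nodal control library (grey) and the Nodal iPCKO library (red); error bars are 95% Clopper-Pearson intervals, which cover counting error only. Astroglial bars stand at 21.8% and 16.1% and neuronal bars at 2.06% and 4.44%, while the mural bars overlap.

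The deleted gene was measured first. Nodal gave 186 UMIs in control mural barcodes and 0 in mutant mural barcodes, that is 76.0 CPM (UMIs scaled to 1000000 per library and lineage) against 0, and the interval of the log2 ratio ran from -6.17 downwards. It was detected in 29.7% of the control mural barcodes. All but 4 of the control UMIs, 182 of them, lay in pericytes. The other lineages held between 0 and 3 Nodal UMIs in each library, and barcodes of at most 100 UMIs, which hold free RNA in place of a cell, gave 16.5 in the control and 1 in the mutant. The deleted gene therefore followed the genotype labels.

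Nodal-pathway genes were mostly within 2-fold, as were most of all measured genes. By lineage, between 0.668% and 2.43% of all genes were 2-fold higher and between 0.632% and 1.48% lower. Of the 22 genes of the Nodal and activin list, which holds receptors, co-receptors, SMADs, antagonists and targets, between 8 and 13 had at least 50 UMIs over both libraries in a lineage and none was 2-fold higher in the mutant in any lineage. The 1 that was 2-fold lower was the type II receptor gene Acvr2b in microglia, at 18.1 CPM in the control and 7.16 in the mutant, a log2 ratio of -1.33 (-1.79 to -0.88). Here and below a log2 ratio is mutant over control, computed on the scale of CPM with 0.5 UMI added to each sum. Median log2 ratios of the list were 0.14 in astroglial, -0.23 in microglial, 0.03 in endothelial, 0.07 in mural and 0.41 in fibroblast barcodes, beside medians over all measured genes of 0.01, -0.06, -0.04, -0.01 and 0.00. Smad3, a signal transducer of the pathway, had log2 ratios of 0.66 in astroglial and -0.59 in fibroblast barcodes, both short of 2-fold.

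With a minimum of 50 UMIs, microglia held the most genes past 2-fold. Of 11587 genes with at least 50 UMIs there, 281 were at least 2-fold higher in the mutant (2.43%) and 172 at least 2-fold lower (1.48%). In astroglia 103 of 12486 genes were higher (0.825%) and 86 lower (0.689%), in endothelial barcodes 88 of 13170 were higher (0.668%) and 99 lower (0.752%), in mural barcodes 77 of 9808 were higher (0.785%) and 62 lower (0.632%), and in fibroblasts 89 of 7523 were higher (1.18%) and 64 lower (0.851%). Gates with fewer UMIs have wider counting error.

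A small set of genes differed in one direction in every lineage. Of 9223 genes with at least 20 UMIs in each of the 5 lineages, 8 were at least 1.5-fold higher in all of them (0.0867%) and 9 at least 1.5-fold lower in all of them (0.0976%). With cells thinned to 1500 UMIs, which left 2289 genes measured, these counts were 0 and 2, and at 2-fold they were 1 and 1. Single lineages reached that fold for between 1.247% and 7.85% of the same genes upwards and between 1.995% and 7.51% downwards. Named genes among those higher were Pdgfrb, Lias, Ifit2, Ifit3, Rsad2, Cxcl10 and Cxcl1, and among those lower Nkain2, Ctnna3 and Pde1c. The remaining 6 lower genes were predicted genes or pseudogenes, and the remaining higher one was Gm47283, a predicted gene on chromosome Y that is named here after its values were seen. Its log2 ratios were 1.58, 1.29, 1.963, 1.62 and 1.06 in astroglial, microglial, endothelial, mural and fibroblast barcodes, the only gene at least 2-fold higher in all 5, and it had 1.19 in empty barcodes and 0.70 and -1.42 in the Bdnf and Hgf lung pairs. It was seen in 20.4% of control and 45.9% of mutant microglia. Its UMIs were partly fractional, that is shared with other genes by the authors' counting, so its level is uncertain. The plot of these genes by lineage separates 3 patterns, which the following paragraphs take in turn.

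**Figure D2:**
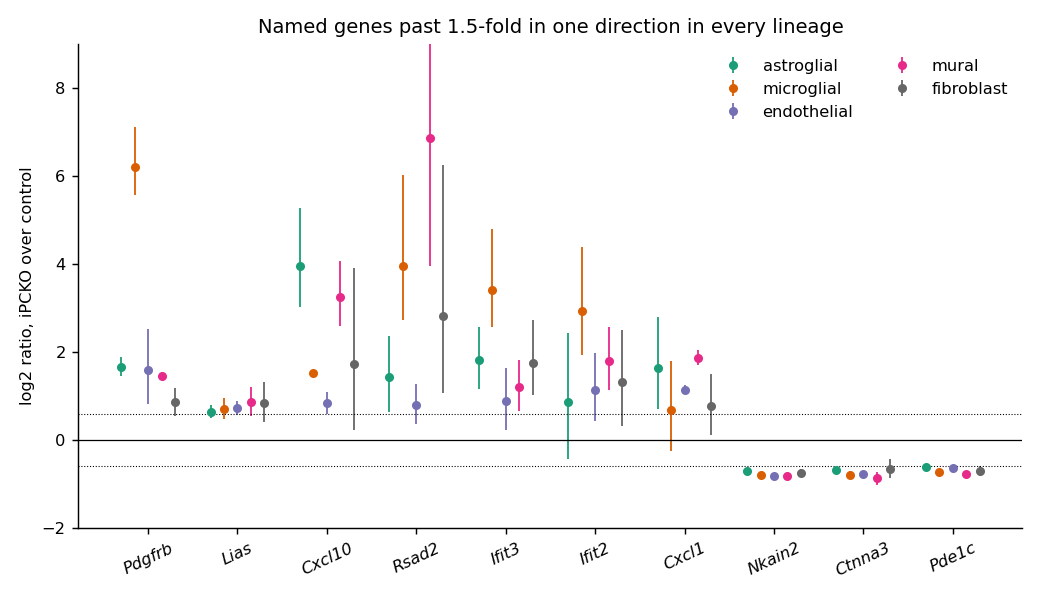
Log2 ratio, mutant over control (vertical axis), of the 10 named genes past 1.5-fold in one direction in all 5 lineages (colours); lines are 95% counting intervals and dotted lines mark 1.5-fold. Interferon-stimulated genes and chemokines have wide intervals that differ between lineages, whereas Lias, Nkain2, Ctnna3 and Pde1c lie at nearly one level in all 5; the Rsad2 mural interval is open upwards because its control count is 0.

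Pdgfrb, the receptor of platelet-derived growth factor B and the defining receptor of mural cells, was higher in every lineage, with the largest log2 ratio in microglia. Mural barcodes gave 639 CPM in the control and 1752 in the mutant, a log2 ratio of 1.46 (1.38 to 1.54). Microglia gave 2.73 and 209 CPM, a log2 ratio of 6.21 (5.56 to 7.12). In astroglia the levels were 32.0 and 102, in fibroblasts 94.4 and 171, and in endothelial barcodes 1.58 and 4.85. The microglial signal was spread over cells: 1.15% of control and 67.8% of mutant microglia had a Pdgfrb UMI, and the 5 cells with most UMIs held 2.32% of the mutant total. Endothelial barcodes, which also lack the gene as a rule, had a Pdgfrb UMI in 0.988% of control and 2.75% of mutant cells at median depths of 9961 and 10173 UMIs, against 6134 and 6388.5 in microglia.

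Csf1r, the colony-stimulating factor receptor of microglia and the gene next to Pdgfrb, was within 2-fold in every lineage. Its log2 ratios were -0.28 (-0.30 to -0.26) in microglia, where it stood at 5007 and 4129 CPM, and -0.09, 0.21, -0.87 and -0.29 in astroglial, endothelial, mural and fibroblast barcodes. The lung libraries of the series used the same transgene with Bdnf or Hgf alleles. They gave Pdgfrb at 12.7 and 38.4 CPM in the Bdnf control and mutant and at 12.6 and 56.1 in the Hgf pair. Lung values throughout sum all barcodes with at least 1500 UMIs, without the mitochondrial limit. Pdgfrb was thus higher in each of the 3 transgene-positive libraries, of which 1 had Nodal as the deleted gene. Whether these transcripts came from the endogenous gene or from the transgene was not tested.

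**Figure D3:**
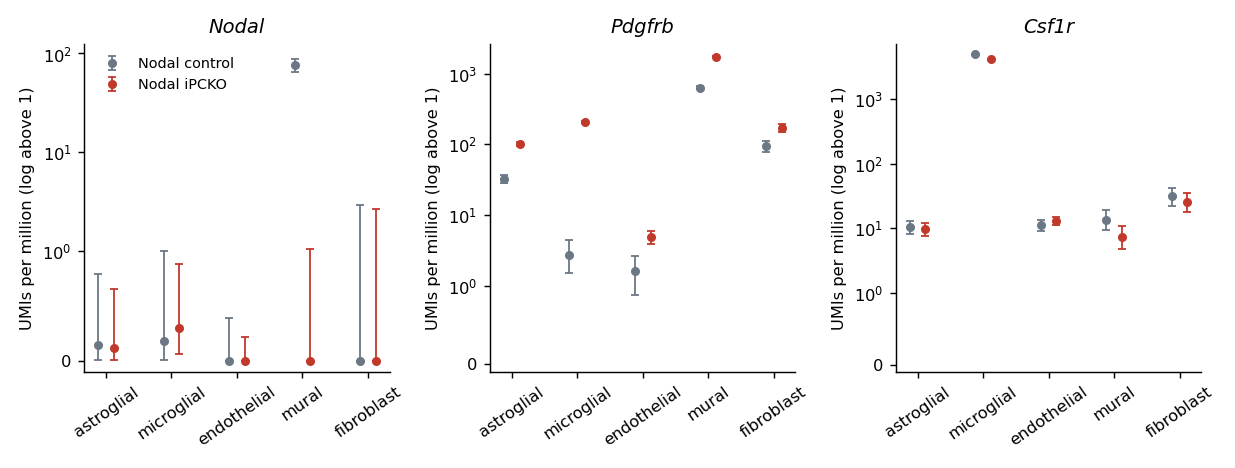
CPM (vertical axis, logarithmic above 1 and linear below) of Nodal, Pdgfrb and Csf1r in each lineage of the control (grey) and mutant (red) library, with 95% Poisson intervals. Nodal stands at 76.0 in control mural cells and at 0.303 or below elsewhere, Pdgfrb is higher in the mutant in all 5 lineages, with 2.73 against 209 in microglia, and Csf1r is within 2-fold throughout.

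Lias, which encodes lipoic acid synthetase of the mitochondrial matrix, was higher by a like amount in the 5 lineages. Its levels were 74.1 and 116 CPM in astroglia, 34.2 and 55.9 in microglia, 45.0 and 74.4 in endothelial, 44.5 and 80.9 in mural and 50.4 and 90.7 in fibroblast barcodes, and its log2 ratios ran from 0.64 to 0.86. Lias lies on chromosome 5 at 65548840 to 65568036, on the plus strand of GRCm39, and many of its neighbours shared the difference. This stretch was picked out after its values were seen, so it is described without a test.

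From Arap2 to Igfbp7, chromosome 5 from 62759788 to 77555931 in GRCm39, a length of 14.8 Mb, genes were higher in the mutant across lineages. In astroglia 61 of 64 measured genes of the stretch had a log2 ratio above 0 with a median of 0.61, in microglia 58 of 66 with a median of 0.44, in endothelial barcodes 62 of 67 with a median of 0.50, in mural barcodes 52 of 53 with a median of 0.53 and in fibroblasts 39 of 43 with a median of 0.55. These medians correspond to between 1.36-fold and 1.53-fold. Over the rest of chromosome 5 the medians were 0.03, -0.04, -0.02, -0.03 and 0.03 in the same order. There 54.4%, 44.6%, 45.3%, 44.7% and 52.8% of measured genes were above 0. The nearest measured genes outside, Gm8121 before the stretch and Adgrl3 after it, had log2 ratios between -0.58 and 0.48 with both signs.

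The genes of the stretch have varied roles. Klhl5, a Kelch-domain protein gene, had levels of 195 and 318 CPM in astroglia and 221 and 329 in endothelial barcodes, with log2 ratios of 0.70 and 0.58, and of 0.68, 0.60 and 0.74 in microglial, mural and fibroblast barcodes. Tbc1d1, a Rab GTPase-activating protein gene, ranged from 0.50 to 0.86 over the 5 lineages, and Srp72, of the signal recognition particle, from 0.37 to 0.62. Kdr, the main endothelial receptor of VEGF-A, was at 1888 CPM in control and 2488 in mutant endothelial barcodes, a log2 ratio of 0.40, close to the median of the stretch. In mural barcodes Kdr read 15.3 and 46.9. The endothelial tight-junction gene Cldn5 also read 8.17 and 20.6 there, with 52.1% of its mutant UMIs in 5 cells, and the summed endothelial markers of the mural gate were 386 CPM in the control and 327 in the mutant. Exceptions were present: of the 48 genes measured in the 4 larger lineages, Gabrb1, Sgcb and Wdr19 were below 0 in 2 or more of the 5 lineages.

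With the limit lowered to 0.32 on the log2 scale, a choice made after the values were seen, 38 of 9223 genes were higher in every lineage and 21 of these lay between Arap2 and Igfbp7, which holds 53 of the genes tested. None of the 49 genes lower in every lineage at that limit lay there. When 7 neighbouring measured genes at a time were taken along every chromosome, 40 of 8154 windows had medians beyond the same limit in one direction in the 4 larger lineages, 39 of them on chromosome 5 around this stretch and 1 on chromosome 12 from Id2 to Eipr1. Neighbouring windows overlap and share genes, so those on chromosome 5 are not separate observations.

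The lung pairs showed the same stretch. Of 166 genes of it measured over Bdnf lung barcodes with at least 1500 UMIs, 149 were higher in the mutant, with a median log2 ratio of 0.58. In the Hgf lungs 92 of 114 were higher, with a median of 0.47. For the rest of chromosome 5 the medians were 0.02 and 0.10, with 53.5% and 58.0% of genes above 0. Lias itself had log2 ratios of 0.67 and 1.06 in the lungs. All 3 mutant libraries carried the transgene and their controls did not, so transgene and stretch cannot be told apart. DNA copy number was not measured in these libraries.

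**Figure D4:**
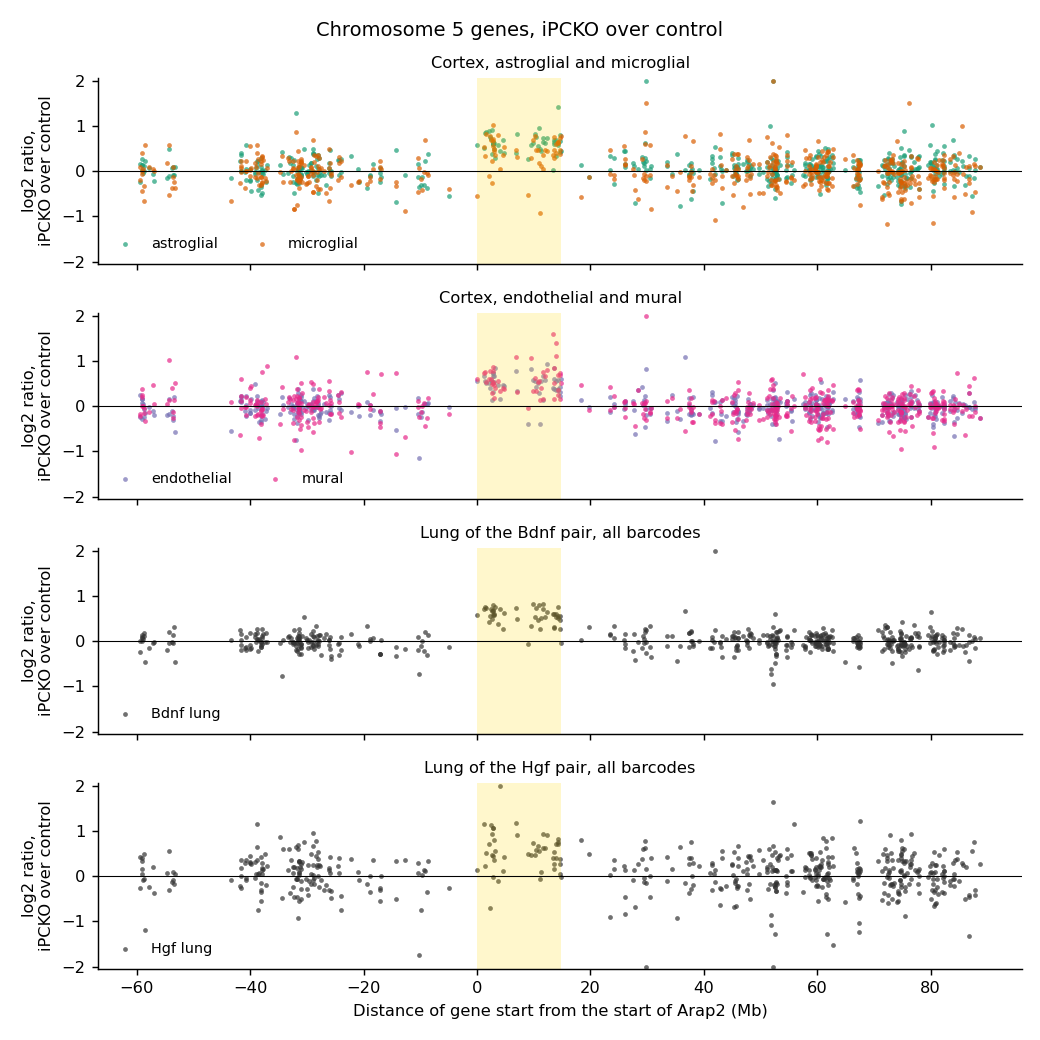
Log2 ratio, mutant over control (vertical axis; values beyond 2 are drawn at 2), of every chromosome 5 gene measured in the 4 larger cortical lineages against the distance of its start from the start of Arap2 (Mb), for cortical lineages and for all barcodes with at least 1500 UMIs of the Bdnf and Hgf lungs. Within the shaded 14.8 Mb from Arap2 to Igfbp7 most points lie above 0 in every panel, and on both sides they scatter around 0. Cortical medians of 0.44 to 0.61 are over all genes of the stretch measured in each lineage, a set that differs from the points drawn.

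Interferon-stimulated genes and chemokines formed the second pattern, through Ifit2, Ifit3, Rsad2, Cxcl10 and Cxcl1, which the rule for every lineage selected. The chemokine and cytokine list as a whole had median log2 ratios of 1.22 in microglia, 1.07 in mural and 0.92 in endothelial barcodes. In astroglia and fibroblasts the list medians were -0.06 and -0.09. Promoter sequences are shown for 4 genes of the pattern that hold a searched motif. They come from RefSeq on GRCm38.p6, 250 bases before to 50 after the start, and 9 of the 10 named genes matched by symbol, Pdgfrb not. Capitals mark a core of the interferon-stimulated response element, GAAA and GAAA with 2 bases between them, and a core of NF-kB sites, GGGA and TTCC with 2 bases between them, each on either strand.
Ifit3 promoter, chr19:34583279-34583578, plus strand: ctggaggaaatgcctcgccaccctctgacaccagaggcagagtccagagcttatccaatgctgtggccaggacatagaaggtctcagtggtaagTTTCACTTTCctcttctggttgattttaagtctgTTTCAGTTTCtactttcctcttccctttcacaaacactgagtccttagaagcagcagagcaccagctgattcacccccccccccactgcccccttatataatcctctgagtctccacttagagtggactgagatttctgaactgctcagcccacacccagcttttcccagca
Rsad2 promoter, chr12:26456403-26456702, minus strand: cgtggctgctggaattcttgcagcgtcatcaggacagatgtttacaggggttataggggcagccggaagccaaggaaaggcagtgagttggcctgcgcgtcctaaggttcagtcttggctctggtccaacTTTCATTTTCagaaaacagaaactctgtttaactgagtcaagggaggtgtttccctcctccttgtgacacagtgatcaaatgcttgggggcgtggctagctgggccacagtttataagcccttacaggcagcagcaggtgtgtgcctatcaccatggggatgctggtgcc
Cxcl10 promoter, chr5:92348840-92349139, minus strand: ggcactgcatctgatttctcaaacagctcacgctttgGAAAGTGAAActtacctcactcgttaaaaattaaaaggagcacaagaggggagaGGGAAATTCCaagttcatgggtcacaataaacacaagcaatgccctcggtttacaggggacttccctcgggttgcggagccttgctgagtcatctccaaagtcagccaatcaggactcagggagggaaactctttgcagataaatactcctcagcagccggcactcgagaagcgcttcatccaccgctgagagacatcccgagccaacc
Cxcl1 promoter, chr5:90890995-90891294, plus strand: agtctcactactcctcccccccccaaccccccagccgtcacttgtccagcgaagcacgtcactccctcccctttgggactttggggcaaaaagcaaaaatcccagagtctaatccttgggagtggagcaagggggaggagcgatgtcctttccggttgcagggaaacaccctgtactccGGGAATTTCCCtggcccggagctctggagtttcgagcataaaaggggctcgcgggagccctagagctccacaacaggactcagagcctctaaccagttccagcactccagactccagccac
Ifit3 holds the interferon motif at 156 and 122 bases before the start, Rsad2 at 120 and Cxcl10 at 213, and Cxcl10 also holds the NF-kB motif at 159. Cxcl1 holds 2 overlapping NF-kB matches, at 71 and 70 bases before the start. Ifit2, not printed, has 2 starts in the table, neither with the interferon motif and 1 with an NF-kB match at 247 bases before the start. Of all 32851 promoters in the table, 3.44% hold the interferon motif and 1.47% the NF-kB motif. In the list of 22 interferon-stimulated genes 16 matched and 10 of these hold the interferon motif, among them 6 of the 9 matched genes that were 2-fold higher in mutant microglia. A match describes letters in this window and not a site in use.

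Ifit3, an antiviral protein gene, was at 1.52 CPM in control and 16.9 in mutant microglia, 3.11 and 11.1 in astroglia, 2.53 and 4.72 in endothelial, 13.9 and 32.2 in mural and 12.99 and 44.8 in fibroblast barcodes. The mutant was higher each time, with log2 ratios between 0.88 and 3.40, although the endothelial ratio was 0.07 with cells thinned to 1500 UMIs. Rsad2, which encodes the antiviral enzyme viperin, gave 4 control and 124 mutant UMIs in microglia and 0 and 84 in mural barcodes, where 1 cell held 37 of the 84 and 5 cells held 84.5%. Its endothelial log2 ratio of 0.80 was -0.85 with cells thinned to 1500 UMIs. Cxcl10, a chemokine that draws T cells, was at 286 and 814 CPM in microglia, where 19.5% of control and 37.0% of mutant cells held a UMI. In the other lineages fewer cells carried it, 13.3% of mutant endothelial, 9.497% of mural, 5.88% of fibroblast and 3.65% of astroglial cells.

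The interval of Ifit2 in astroglia (-0.45 to 2.44) included no difference, and its log2 ratio of 0.86 was -0.22 after thinning. Single cells carried much of some of these signals. A single mutant fibroblast held 18 of the 19 Rsad2 UMIs of its gate, and a single mutant mural cell held 133 of 252 Cxcl10 UMIs. Leaving out the cell with most UMIs in each library and lineage, an alternative added after the values were seen, left 5 of the 8 higher genes. Rsad2 and Ifit2 then missed 1.5-fold in fibroblasts, and Cxcl10 was lost because fewer than 20 UMIs remained there. Cxcl10 had 4 control UMIs in fibroblasts, all in 1 cell, and 16 in the mutant. Without the top cells its fibroblast ratio therefore rests on the 0.5 UMI added to each sum. In the other lineages the Cxcl10 log2 ratios were then 0.82 to 4.26. A stricter gate and the removal of Scrublet doublets each left 4 genes higher, without Cxcl10, Ifit2, Rsad2 and Cxcl1. The fibroblast log2 ratio of Cxcl10, from few UMIs, was 0.85 and 0.81. The Rsad2 log2 ratio of fibroblasts was -0.81 with the stricter gate and -0.85 without the doublets. Without its top cell that ratio was -0.14. Pdgfrb, Lias and Ifit3 still met the rule under these 3 alternatives, but the fibroblast log2 ratio of Ifit3, 1.75, was 0.65 with the stricter gate and 0.66 without the doublets. A single mutant fibroblast held 34.2 of its 62.7 UMIs. Summed microglial markers in the fibroblast gate were 268 CPM in the control and 401 in the mutant. Markers of other lineages summed higher there, at 3696.5 and 3480 CPM for astroglial, 2174 and 1652 for mural and 806 and 647 for endothelial markers. The part of these lineages in the fibroblast values was not tested.

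Cxcl1, a neutrophil-attracting chemokine, was most abundant in vascular cells. It stood at 108 and 239 CPM in endothelial and 136 and 492 in mural barcodes, seen in 26.2% and 46.9% of control and mutant endothelial cells and in 24.9% and 45.6% of mural cells. Astroglia and microglia held between 11 and 43 Cxcl1 UMIs per library, and the microglial interval included no difference (-0.26 to 1.80).

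Nkain2, Ctnna3 and Pde1c, which encode a sodium pump-interacting protein, an alpha-catenin and a calcium-dependent phosphodiesterase, made up the third pattern. Nkain2 was at 2161 and 1324 CPM in astroglia, 2022 and 1153 in microglia, 1859 and 1051 in endothelial, 1751 and 982 in mural and 1865 and 1100 in fibroblast barcodes, so that within a library the lineages lay close together. It was also at 2550 and 1590 CPM in the empty barcodes of at most 100 UMIs. Ctnna3 and Pde1c had the same form, at 649 and 380 and at 1867 and 1157 in those barcodes. Log2 ratios in cells were between -0.61 and -0.88 for the 3 genes and between -0.68 and -0.77 in the empty barcodes. The part of free RNA in the lineage values was not tested. In the Bdnf and Hgf lung pairs the log2 ratios were -0.40 and 0.19 for Nkain2, -0.25 and 0.10 for Ctnna3, and -0.32 and 0.18 for Pde1c. For the higher genes the empty-barcode log2 ratios were 1.73 for Pdgfrb, 1.12 for Cxcl10, 1.05 for Ifit3, 0.81 for Cxcl1, 0.52 for Rsad2, 0.33 for Lias and 0.21 for Ifit2.

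List medians ranged widely between lineages, a range that was not tested. The median log2 ratio of the interferon-stimulated list was 1.51 in microglia, 1.04 in mural, 0.84 in astroglial, 0.40 in fibroblast and 0.07 in endothelial barcodes, against medians over all measured genes between -0.06 and 0.01. With cells thinned to 1500 UMIs the medians were 0.87 in microglia and 0.08 in mural barcodes, and the fibroblast median was -0.0064 with the stricter gate and -0.11 without doublets. Members at least 2-fold higher were 12 of 19 in microglia, 10 of 19 in mural, 6 of 12 in astroglial, 2 of 12 in fibroblast and 1 of 20 in endothelial barcodes, and none was 2-fold lower. Of all genes measured, 2.43%, 0.785%, 0.825%, 1.18% and 0.668% were 2-fold higher in these lineages, in the same order. The summed level of the list was nearly equal in endothelial barcodes, at 2840 and 2874 CPM, and in microglia it was 1716 and 2826. In mural barcodes the 10% of cells with most list UMIs held 26.7% of them in the control and 42.1% in the mutant.

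**Figure D5:**
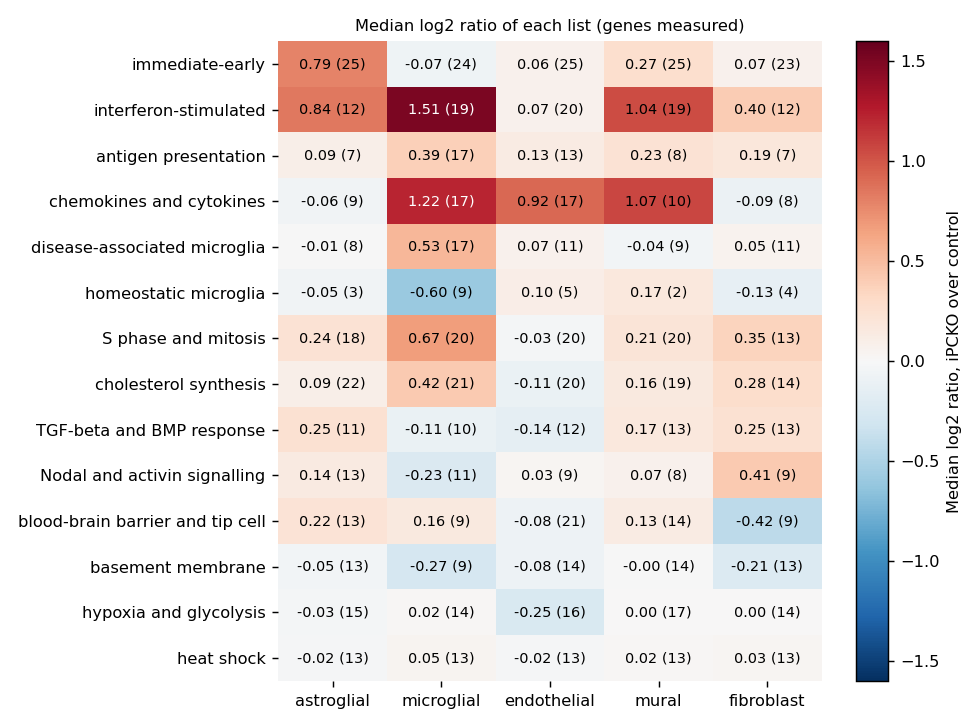
Median log2 ratio, mutant over control, of each gene list (rows) in each lineage (columns), with the number of genes measured in brackets; red is higher and blue lower in the mutant. Interferon-stimulated genes read 1.51 in microglia and 0.07 in endothelial barcodes, and immediate-early genes read 0.79 in astroglia and between -0.07 and 0.27 elsewhere.

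Further interferon genes were past 2-fold in microglia. Rtp4, an interferon-inducible receptor-transporter gene, had a log2 ratio of 2.25 (1.85 to 2.72), and Ifi27l2a, at 19.9 and 99.2 CPM, was seen in 7.81% and 25.6% of cells. Oasl2, of the oligoadenylate synthetase family, was at 5.46 and 31.1, and Irf7, the transcription factor that amplifies interferon production, at 2.684 and 12.003. Among chemokines and cytokines 9 of 17 members were 2-fold higher and none lower, where 2.43% of all microglial genes were higher. In endothelial barcodes 7 of 17 members were 2-fold higher and none lower, where 0.668% of all genes were higher. In microglia Ccl12 was at 302 and 1040 CPM, Csf1 at 126 and 476, Il1b at 154 and 504 and Cxcl16 at 74.98 and 239, and 58.0% of control and 78.6% of mutant microglia held a Ccl12 UMI. In empty barcodes these genes had log2 ratios of 1.48, 1.06, 1.70 and 1.24, and the part of free RNA in them was not tested. The list of microglial genes that the study named on these same libraries had 9 of 11 members 2-fold higher, which is not independent evidence of direction.

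Genes of disease-associated microglia, a state first described around amyloid plaques, had 6 of 17 members 2-fold higher in microglia and none lower, beside the same 2.43% of all genes. Axl, a receptor tyrosine kinase with a role in the clearance of dying cells, was at 44.9 and 274 CPM and seen in 15.3% and 54.1% of cells. Itgax, Clec7a and Cst7 had log2 ratios of 3.11, 2.55 and 2.13. All 9 homeostatic genes were lower by less than 2-fold, with a median of -0.60 and P2ry12, the purinergic receptor of resting microglia, at -0.69. Of all microglial genes measured, 43.2% were above 0.

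MHC class II genes were high in a handful of cells. H2-Aa gave 15 control and 540 mutant UMIs in microglia, yet only 1.248% of mutant cells held one and 5 cells held 95.9% of them. H2-Eb1 had the same form, with 96.6% in 5 cells. Cd74, the class II invariant chain, was broader, at 97.0 and 224 CPM in 34.2% and 51.5% of cells. The 5 monocyte markers summed to 57.4 CPM in control and 107 in mutant microglial barcodes, and their part in these values was not tested.

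Of the S phase and mitosis genes in microglia, 19 of 20 had log2 ratios above 0, against 43.2% of all genes there. Their median log2 ratio was 0.67, and 3 genes were past 2-fold (2.43% of all genes). Ube2c, a ubiquitin-conjugating enzyme of mitosis, was at 38.5 and 98.0 CPM and seen in 5.05% and 9.99% of cells, and Mki67 was seen in 6.77% and 13.7%. In endothelial barcodes the list had a median of -0.03 and none of 20 genes past 2-fold, with Mki67 in 9.75% and 11.1% of cells. Astroglia had 4 of 18 genes 2-fold higher (0.825% of all genes), with a list median of 0.24 that was -0.09 after thinning. Sqle, an early enzyme of cholesterol synthesis, was 2-fold higher in microglia with a log2 ratio of 1.39, in a list whose median there was 0.42.

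In astroglia 7 of 25 immediate-early genes were 2-fold higher and none lower, where 0.825% of all genes were higher, with a median log2 ratio of 0.79. In microglia 1 of 24 was 2-fold higher, where 2.43% of all genes were. This was Nr4a2, which had 51 UMIs in the mutant. Egr1 was at 491 and 1026 CPM in astroglia and seen in 36.5% and 63.9% of cells. Ier2 and Zfp36 had log2 ratios of 1.38 and 1.15. Astroglial cells held a median of 7 list genes in the control and 10 in the mutant, while endothelial cells held 19 and 20. The 10% of astroglial cells with most list UMIs held 53.9% of them in the control and 39.1% in the mutant. In empty barcodes Egr1 and Ier2 had log2 ratios of 0.02 and 0.00. The 12 astrocyte genes named by the study on these libraries, again no independent evidence of direction, had a median of 0.76 with 2 past 2-fold, Ccnd1 at 1.07 and Egr1 at 1.06, and Gfap, the intermediate filament of astrocytes, was at 236 and 286 CPM. The textbook list of pan-reactive astrocyte genes had 0 of 7 measured members past 2-fold in astroglia, with a median of 0.27. Of the 7 genes 4 were above 0, near the 51.1% of all astroglial genes.

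Some genes differed in one lineage and not elsewhere. A gene was counted when it was at least 2-fold different in 1 lineage and had a log2 ratio within 0.32 of 0 in every other lineage where it had enough UMIs, with at least 2 such lineages. This held for 16 genes higher and 3 lower in astroglia (0.153% and 0.0287% of 10443 that could qualify), 21 and 27 in microglia (0.208% and 0.267% of 10105), 5 and 4 in endothelial barcodes (0.0469% and 0.0375% of 10664), 12 and 2 in mural barcodes (0.128% and 0.0214% of 9353), and 16 and 16 in fibroblasts (0.223% and 0.223% of 7164). The rule itself fixes the contrast between lineages, so the values that follow are a description and no test.

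The astroglial genes named, 3 of the 16 higher, were Egr2, an early growth response factor, at 7.22 and 25.7 CPM, Heyl, a target of Notch signalling, at 17.1 and 45.3, and Spry1, an inhibitor of receptor tyrosine kinase signalling, at 45.1 and 108. Their log2 ratios were 1.82, 1.40 and 1.252, and in the other lineages measured they lay between -0.05 and 0.24, -0.30 and 0.16, and -0.27 and 0.27. With cells thinned to 1500 UMIs the 3 log2 ratios were 0.81, 0.79 and 0.89, short of 2-fold. Col5a2, a fibrillar collagen chain, was lower, at 21.3 and 10.5. In empty barcodes these 4 genes had log2 ratios between -0.05 and 0.12.

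In microglia Slfn5, an interferon-inducible Schlafen gene, was at 11.6 and 57.2 CPM, with log2 ratios between -0.20 and 0.01 in the 2 other lineages measured. Ehd1, an endosome recycling gene, was at 16.1 and 55.3, and Got1, the cytosolic aspartate aminotransferase, at 25.4 and 67.0. Lower in microglia by the same rule were Tbc1d2, at 8.80 and 2.40, Eef2k, the kinase of elongation factor 2, at 79.4 and 36.3, and the junctional adhesion gene Jam2, at 49.9 and 22.5. The 6 genes had log2 ratios between -0.16 and 0.35 in empty barcodes.

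Endothelial barcodes had few such genes. Itih5, which stabilises the hyaluronan matrix, was at 32.6 and 101 CPM, a log2 ratio of 1.62 (1.45 to 1.80), and between -0.10 and 0.26 in the 3 other lineages measured. F2r, the thrombin receptor gene, was at 16.0 and 38.1, and Mroh1 at 2.32 and 4.91. Ddit4l and Ankrd6 were lower, with log2 ratios of -1.10 and -1.08, and Ankrd6 was at -0.11 after thinning. In empty barcodes the log2 ratios were 0.10 for Itih5, 0.56 for F2r, -0.50 for Mroh1, -0.50 for Ddit4l and -0.92 for Ankrd6, so that free RNA moved with the call for F2r, Ddit4l and Ankrd6, and its part in them was not tested. Outside the one-lineage rule, Sele, the adhesion receptor of inflamed endothelium, was seen in 0.617% of control and 3.16% of mutant endothelial barcodes. Its log2 ratio was 1.97 there and 2.21 in empty barcodes, and the part of free RNA in it was not tested. Ccl5 in endothelial barcodes came from 6 mutant cells, 5 of which held 97.9% of its 96 UMIs, and in empty barcodes it had a log2 ratio of 2.09. All 21 barrier and tip-cell genes stayed within 2-fold in endothelial barcodes, with a median of -0.08. Of all genes measured there only 0.668% were 2-fold higher and 0.752% lower, so this count does not set the list apart.

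In mural barcodes Aldh1a1, which makes retinoic acid, was at 5.31 and 18.0 CPM, Cep192, a centrosome scaffold, at 8.17 and 21.2, and Rab30, a Golgi GTPase, at 3.677 and 12.02. Their intervals were wide because the control sums were 13, 20 and 9 UMIs. Man1a and Dapk2 were lower, at 20.8 and 9.05 and at 17.6 and 8.48, and Man1a had a log2 ratio of -0.59 after thinning. In empty barcodes Dapk2 had a log2 ratio of -1.01, close to its -1.04 in mural barcodes, and the part of free RNA in it was not tested, while the other 4 genes lay between -0.62 and 0.20. Of the chemokine and cytokine list 5 of 10 measured genes were 2-fold higher in mural barcodes and none lower, where 0.785% of all genes were higher. Chemokine and adhesion genes past 2-fold there, which the one-lineage rule did not select, included Cxcl2 at 3 and 157.5 UMIs, Ccl2 at 18.4 and 61.1 CPM and Icam1, a leukocyte adhesion gene, at 18.4 and 49.8. In empty barcodes these 3 genes had log2 ratios of 1.47, 0.27 and 0.59.

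In fibroblasts Nnat, an imprinted proteolipid gene, was at 403 and 999 CPM. Its log2 ratio was 1.31 (1.16 to 1.46), but 5 cells held 73.5% of its mutant UMIs and it was seen in 31.1% of control and 25.5% of mutant cells. Also higher were Prxl2a at 17.3 and 46.4 and Ubash3b at 44.1 and 96.4, but Ubash3b was lower in the mutant after thinning, with a log2 ratio of -0.52. The protocadherin gene Pcdhga4, the chromatin remodeller Smarca1 and the matrix gene Ccdc80 were lower, with log2 ratios of -1.24, -1.28 and -1.06, of which Pcdhga4 was at -0.67 after thinning. In empty barcodes the 6 fibroblast genes had log2 ratios between -0.37 (Ccdc80) and 0.997 (Smarca1). Summed fibroblast markers in this gate were 24619 CPM in the control and 19682 in the mutant, and the gate held 90 and 102 cells, the fewest of the 5 lineages.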

How the data were processed

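Cortices were dissociated and captured on the BD Rhapsody platform for whole-transcriptome libraries. The authors deposited expected counts per gene and barcode, made with STARsolo of STAR 2.7.10a on GRCm39 without a cell filter; reads that match several genes were shared out by expectation maximisation, so values need not be whole (9.08% and 9.21% of entries). Annotation was Gencode vM33 in the methods and M26 in the data availability note. Barcodes with at least 1500 UMIs and at most 17% mitochondrial UMIs were kept and gated by markers, then deposited counts were summed per library and lineage and scaled to 1000000 per sum (CPM). Lung sums used the UMI limit only and no gate. Genes needed 50 UMIs for 2-fold calls and 20 per lineage for the 1.5-fold calls in every lineage; 0.5 UMI was added before log2 ratios. With 1 library per genotype no test was run. Scrublet in scanpy 1.11.5, with an expected rate of 0.1, marked 21 (0.697%) and 50 (1.05%) doublets, removed only as an alternative.

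The members and lists were chosen with earlier results of these data known. Named were Nodal, up to 10 genes per direction in every lineage, up to 3 per direction in one lineage only and 2 to 4 list members past 2-fold per list and lineage, by how far the nearer interval bound lay from 0; other list members, the chromosome 5 genes (Gm8121 among them), Gm47283, Csf1r and Smad3 were chosen after their values were seen. Other predicted genes were counted and not named. Python 3.11.15, numpy 2.4.6, scipy 1.17.1 and pandas 2.3.3 were used, and the scripts were tested on simulated data. Alternatives covered scaling, thinning, filters, folds, gates and doublets.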

Additional observations from a re-analysis of the deposited data

Results flagged for a closer look

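4 genes were at least 2-fold higher in one lineage of the mutant library and at least 2-fold lower in another, with the interval bound nearest 0 past 1.5-fold both times; the difference between lineages was not tested. Lamc3, a laminin chain gene, had a log2 ratio of 1.37 in endothelial and -1.03 in fibroblast barcodes. Vcam1, an adhesion receptor gene, had 1.95 in microglial and -1.30 in fibroblast barcodes. Atpaf1, an assembly factor gene of the mitochondrial ATP synthase, had 1.88 in fibroblast and -1.63 in mural barcodes. Ldb2, a LIM-domain binding protein gene, had 1.16 in endothelial and -1.14 in mural barcodes. Lamc3, Vcam1 and Atpaf1 rest in part on the fibroblast gate of 90 control and 102 mutant cells. Per lineage, between 0.668% and 2.43% of all measured genes were 2-fold higher and between 0.632% and 1.48% lower.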

How the results depend on the processing

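No paired analysis was possible because each genotype was 1 library. Of 150 main values under alternatives, 89 stayed within their range and 61 moved; of 696 single values, 643 stayed, 45 moved and 8 reversed; the cause of these changes was not tested unless fewer UMIs, cells or genes enter by construction. The astroglial log2 ratio of shares was -0.10 with at most 10% mitochondrial UMIs. Counts of genes past the fold are given as higher and lower for astroglial, microglial, endothelial, mural and fibroblast barcodes in turn. With cells thinned to 1500 UMIs they were 56 and 34, 143 and 65, 35 and 36, 31 and 13, and 18 and 8. With at least 20 UMIs they were 259 and 297, 489 and 473, 253 and 363, 212 and 240, and 293 and 252. With no filter on low values they were 3602 and 4657, 2424 and 4643, 2269 and 4137, 3447 and 3962, and 3386 and 3523. At 1.5-fold they were 475 and 468, 748 and 863, 393 and 602, 326 and 395, and 434 and 427. By the mean of per-cell values they were 154 and 150 in endothelial and 137 and 98 in fibroblast barcodes.

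Genes higher in every lineage numbered 0 after thinning, which left 2289 genes measured, 5 by per-cell means, 4 with the stricter gate, without Scrublet doublets or with at least 50 UMIs, 14 without the fibroblast gate and 1 at 2-fold. Genes lower in every lineage numbered 2 after thinning, 18 without the fibroblast gate, 4 with at least 50 UMIs and 1 at 2-fold. Added after seeing the data, a limit of 0.32 on the log2 scale gave 38 and 49, and leaving out the cell with most UMIs left 5 higher. Genes in one lineage only numbered 159 and 138 when within 1.5-fold elsewhere. Reversed values were the interferon median of fibroblasts, at -0.0064 with the stricter gate and -0.11 without doublets, the S phase and mitosis median of fibroblasts at -0.24 after thinning, Ifit2 in astroglia at -0.22, Rsad2 in endothelial barcodes at -0.85 and Ubash3b in fibroblasts at -0.52 after thinning, and Rsad2 in fibroblasts at -0.81 with the stricter gate and -0.85 without doublets.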

Other observations

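Of the textbook sex-linked list, 3 genes could be measured and none was past 2-fold in any lineage. By lineage, between 0.668% and 2.43% of all genes were 2-fold higher and between 0.632% and 1.48% lower, so this count does not set the list apart. Xist had log2 ratios between -0.10 and 0.18 over the 5 lineages and Ddx3y between -0.30 and -0.09. Gm47283, annotated on chromosome Y and not in that list, was higher in every lineage, by log2 ratios of 1.06 to 1.963, where Ddx3y was lower. Its UMIs were partly shared with other genes, so it is not read here as a measure of chromosome Y.

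Of the haemoglobin genes, 3 of 3 measured in astroglia were 2-fold higher, where 0.825% of all genes were, with a median of 1.18. In endothelial barcodes none of 4 was, where 0.668% of all genes were, with a median of 0.59. Hba-a1 gave 8.5 and 93.1 UMIs in astroglia, with 85.5% of the mutant UMIs in 5 cells, and stood at 971 and 1547 CPM in endothelial barcodes, of which 0.988% and 1.99% carried an erythroid score.

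Of 11 glucocorticoid-response genes measured in microglia, 3 were 2-fold lower and 3 had a log2 ratio above 0, with a median of -0.38. Of all genes measured there 1.48% were 2-fold lower and 43.2% were above 0. Sgk1 and Fkbp5 had log2 ratios of -1.12 and -1.06. In endothelial barcodes the list had a median of 0.05, with 1 of 12 genes 2-fold higher and 2 lower, where 0.668% of all genes were higher and 0.752% lower. The 2 lower genes, Mt1 and Mt2, had log2 ratios of -1.24 and -1.18 there and of -0.72 and -0.71 in empty barcodes, and the higher one, Zbtb16, had 1.03.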
